A study of Mus musculus with 117 samples.

Results

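The squamous cell carcinomas of skin were the 6 tumours with that source among 117 mouse samples profiled on Affymetrix arrays, and they were set against the 60 tumours of 6 other types in the same series. Those others were 9 uterine adenocarcinomas, 10 prostatic adenocarcinomas, 11 gastric adenocarcinomas, 14 bronchial papillary adenomas, 13 hepatocellular carcinomas and 3 B-cell lymphomas. All were C57BL/6 mouse tissue, and each tumour sample was a small piece frozen on dry ice right after the animal was killed, from which total mRNA was extracted and biotin-labelled. The series was built around mice with conditional mutations of Prom1, the gene of the surface protein prominin 1, but the genotype, age and animal behind each tumour are not given in the sources used here, so p-values measure the spread between these samples. No normal skin was profiled. The 51 normal samples of other tissues entered the choice of each gene's probe set and 1 alternative fit, but not the main fit.

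Squamous carcinoma of the skin arises from keratinocytes, the cells of the stratified epithelium that covers the body. Basal keratinocytes express keratins 5 and 14 and the transcription factor p63, and as they move outwards they switch to keratins 1 and 10. In the granular layer they crosslink small proteins such as loricrin and the SPRR proteins under the membrane into a cornified envelope, and fill the spaces between cells with lipid. Wounded or growing epidermis turns on keratins 6 and 16. Simple epithelia, the source of the adenocarcinomas, use keratins 7, 8, 18 and 19 instead.

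Values are the deposited log2 signals of 13456 genes, each measured by its brightest probe set over all 117 samples. The difference given for a gene is the mean of the 6 skin tumours minus the mean of the 6 other type means, so that each type counts equally, with its SE after ±. A difference of 1 is 2-fold. A gene was called when its p-value in the limma fit over all 66 tumours, adjusted over all genes tested by the Benjamini-Hochberg method, was under 0.05. By this rule 2583 genes (19.2%) were higher and 3028 (22.5%) lower in the skin tumours, and the median difference over all genes was -0.07. A stricter count asked for a call in the same direction against every other type, which 552 genes (4.1%) met upwards and 224 (1.66%) downwards. In 90 genes (0.669%) all 6 skin tumours lay above all 60 others, and in 21 (0.156%) below all of them. The array medians of all 66 tumours ran from 3.655 to 3.854, and the gap between 3' and 5' probe sets of Gapdh, a sign of RNA quality, was 0.348 to 0.525 in the skin tumours, inside its range of 0.142 to 0.979 over all tumours. The tumours are bulk tissue, in which fewer cells of a type and less RNA per cell cannot be told apart.

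The label was set first against markers of basal keratinocytes. Krt14, Krt5 and Trp63, the basal keratins and the gene of p63, were high in every skin tumour. Krt14 had log2 signals of 12.99, 13.03, 12.89, 13.42, 13.62 and 13.30 in skin tumours 1 to 6, against 2.45 to 12.78 (median 3.08) in the 60 others. Trp63 stood at 9.68, 9.75, 9.29, 9.52, 9.44 and 9.57 in the skin tumours, against 2.40 to 9.33 (median 2.79) in the others. The highest other values of both genes were those of uterine tumours. Krt14 separated skin from uterine tumours only narrowly. Trp63 did not separate them fully, since skin tumour 3, at 9.29, was below the highest uterine value of 9.33. Markers of the outer layers, given below, divided the skin tumours, with Lor at 2.73 in both tumours 1 and 3.

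The 6 skin tumours did not form one even group, and this touches many results. Over all genes tested, tumours 2, 4 and 6 correlated with each other at 0.956 to 0.979 (Pearson's r across genes, which are not independent replicates), and tumours 1, 3 and 5 at 0.933 to 0.941. Pairs across these sets reached 0.852 to 0.913. Tumours 1 and 3 were as close to several uterine tumours as to some skin tumours. Tumour 1 had r of 0.924, 0.941 and 0.926 with uterine tumours 1, 2 and 3, against 0.941 and 0.933 with skin tumours 3 and 5 and 0.879 to 0.895 with skin tumours 2, 4 and 6. Tumour 3 had 0.908, 0.929 and 0.907 with the same uterine tumours, against 0.852 to 0.863 with skin tumours 2, 4 and 6. The other skin tumours reached 0.848 to 0.891 with uterine tumour 2. Among pairs of tumours of 1 type the lowest r was 0.852 in skin, and in the other types it ran from 0.857 in uterine tumours to 0.956 in lymphomas. Results are therefore also given without tumours 1 and 3, an alternative chosen after the values were seen. Without them 2325 genes (17.3% of 13424) were higher and 2738 (20.4%) lower, 614 (4.57%) were higher and 278 (2.07%) lower than each other type, and 2107 of the higher and 2451 of the lower genes were those called with all 6.

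The promoters of some genes at the centre of this comparison are shown here. Most of those shown carry a match to TGANTCA, a pattern that covers the letters bound by the AP-1 family of transcription factors. Each sequence is the 250 bases before the gene's start in RefSeq (GRCm38.p6), on the gene's own strand, with any TGANTCA match in capitals. Krt14 (chr11:100206031-100206280, minus strand) is the basal keratin, and Krtdap (chr7:30787655-30787904, plus strand) encodes a small secreted protein of differentiating keratinocytes. Sprr1b (chr3:92438780-92439029, minus strand) and Lor (chr3:92083143-92083392, minus strand) encode envelope proteins, and Flg (chr3:93273296-93273545, plus strand) encodes filaggrin, which bundles keratin filaments.
Krt14: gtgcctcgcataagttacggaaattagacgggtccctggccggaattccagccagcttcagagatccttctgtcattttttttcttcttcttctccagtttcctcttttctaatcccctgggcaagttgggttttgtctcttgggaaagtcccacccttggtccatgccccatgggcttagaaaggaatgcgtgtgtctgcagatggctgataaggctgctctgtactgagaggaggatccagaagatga
Krtdap: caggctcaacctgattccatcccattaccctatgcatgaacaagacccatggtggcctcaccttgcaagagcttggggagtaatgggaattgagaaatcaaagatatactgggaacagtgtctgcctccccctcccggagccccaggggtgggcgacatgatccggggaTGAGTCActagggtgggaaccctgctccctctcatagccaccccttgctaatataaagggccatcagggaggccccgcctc
Sprr1b: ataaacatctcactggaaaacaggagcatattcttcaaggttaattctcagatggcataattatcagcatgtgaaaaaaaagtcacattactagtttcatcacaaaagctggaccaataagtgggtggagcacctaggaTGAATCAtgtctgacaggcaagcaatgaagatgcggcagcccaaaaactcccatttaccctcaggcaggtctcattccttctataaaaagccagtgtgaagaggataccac
Flg: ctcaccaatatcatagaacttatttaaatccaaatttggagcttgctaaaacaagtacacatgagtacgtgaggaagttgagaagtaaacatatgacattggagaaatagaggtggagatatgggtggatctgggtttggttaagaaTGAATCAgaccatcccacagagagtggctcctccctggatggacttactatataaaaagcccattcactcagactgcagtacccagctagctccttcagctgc
Lor: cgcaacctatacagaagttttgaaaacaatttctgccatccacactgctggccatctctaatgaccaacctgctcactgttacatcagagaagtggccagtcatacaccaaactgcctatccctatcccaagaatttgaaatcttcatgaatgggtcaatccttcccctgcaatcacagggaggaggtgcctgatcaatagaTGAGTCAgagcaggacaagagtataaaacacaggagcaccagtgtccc
The match begins 81 bases before the start in Krtdap, 111 in Sprr1b and 48 in Lor, while these letters are not in the Krt14 window. TGANTCA reads the same way on both strands, and it occurred in 7.81% of all 32851 promoter windows of the table, which run from 250 bases before to 50 after the start. Of the genes tested that had a window, 783 of 10794 (7.25%) held it. Among cornified envelope genes it was 15 of 37 (40.5%), among epidermal proteases and inhibitors 6 of 14, among lipid barrier genes 1 of 14 and among epidermal transcription factors 1 of 23. The envelope list includes gene families of near-identical copies, so its windows need not be independent. Lists that did not rise together held it too, among them 6 of 13 matrix proteases, 3 of 8 interferon response genes and 5 of 15 chemokines. TATAAA, on either strand, was in 17 of the 37 cornified envelope windows, in 11 of 17 hair follicle windows and in 10.7% of the genes tested. These matches describe the letters and show no binding.

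Keratins were among the genes with the largest differences. The gene with the largest rise of all was Krt6b, a keratin of activated epidermis, at 12.87, 13.18, 12.54, 13.53, 13.16 and 13.63 in skin tumours 1 to 6 and 2.23 to 12.05 (median 2.54) in the 60 others, a difference of 9.42 ± 0.43, adjusted p = 9.04e-28. All 6 skin tumours lay above every other tumour, and the nearest others were uterine. Krt6a (8.08 ± 0.49, adjusted p = 5.15e-22), its close copy, and Krt16 (8.35 ± 0.40, adjusted p = 1.25e-26) behaved likewise, although the near-identical Krt6 genes cannot be fully told apart by such probes. Krt16 was at 9.04, 12.46, 9.21, 13.17, 12.65 and 13.15 in the skin tumours, so tumours 1 and 3 were its lowest, against 2.43 to 8.82 (median 2.77) in the others. All 4 tested keratins of activated epidermis were higher in skin, against 19.2% of all genes, with a median difference of 8.21 (8.88 without tumours 1 and 3), although 1 of them passed the filter on low values only through the skin tumours.

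The basal keratins were even across the skin tumours apart from Krt15. Krt5 lay at 12.09 to 12.88 (median 12.60) in the skin tumours, against 3.40 to 12.51 (median 3.87) in the others (7.18 ± 0.41, adjusted p = 5.73e-23). Krt14 differed by 8.31 ± 0.47, adjusted p = 5.29e-23. Krt15, which marks resting basal cells and the follicle bulge, was at 10.32, 7.27, 11.39, 7.80, 11.37 and 8.12 in skin tumours 1 to 6, against 2.40 to 11.04 (median 2.97) in the others (4.84 ± 0.44, adjusted p = 3.61e-14). Its 3 highest skin values were those of tumours 1, 3 and 5. All 3 basal keratins were higher than in each other type, though only 2 of them without tumours 1 and 3.

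Krt13 and Krt4, a pair that in normal mice belongs to the stratified lining of mouth, oesophagus and forestomach more than to skin, were high in all 6 tumours. Krt13 stood at 12.55, 11.07, 12.32, 11.86, 12.44 and 12.68 in the skin tumours and 2.20 to 10.86 (median 2.79) in the others, a difference of 8.56 ± 0.45, adjusted p = 1.8e-24 with no overlap. Krt4 was at 11.89, 10.74, 12.64, 9.76, 13.12 and 12.32 in the skin tumours, against 2.81 to 10.10 (median 3.33) in the others (7.18 ± 0.47, adjusted p = 2.49e-20), where a prostatic tumour was highest.

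The suprabasal keratins divided the tumours. Krt1, the main keratin of the outer living layers, was at 5.84, 13.43, 3.85, 13.60, 11.03 and 13.42 in skin tumours 1 to 6, against 2.78 to 4.79 (median 3.29) in the 60 others. Tumours 2, 4, 5 and 6 stood far above every other tumour, tumour 1 just above, and tumour 3 among them. The difference was 6.87 ± 0.55, adjusted p = 1.26e-16 with all 6 and 9.54 ± 0.21, adjusted p = 2.04e-44 without tumours 1 and 3. Krt10, the partner of Krt1, did not overlap at all, with 9.70, 13.09, 7.97, 13.13, 11.73 and 13.13 in the skin tumours and 3.86 to 7.96 (median 5.33) in the others (6.19 ± 0.34, adjusted p = 8.83e-24). Krt78 (4.89 ± 0.41), Krt80 (3.14 ± 0.30) and Krt77 (0.76 ± 0.19) were also higher. Krt2, a keratin of the upper epidermis, was high in tumour 6 alone (3.15, 4.89, 3.04, 3.79, 2.94 and 9.99 in skin tumours 1 to 6, highest other 2.90). All 6 listed suprabasal keratins were called higher, with a median difference of 4.01, or 4.996 without tumours 1 and 3. Of these, 2 passed the filter only through the skin tumours, and under a stricter filter 4 were tested, with a median of 5.54.

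Simple epithelial keratins were lower in part and again divided the skin tumours. Krt7 was at 9.80, 4.64, 12.63, 3.46, 11.29 and 3.53 in skin tumours 1 to 6, against 2.77 to 12.64 (median 10.91) in the 60 others. Tumours 1 and 5 were near the others' median, tumour 3 was near their highest value, and tumours 2, 4 and 6 were far below the median. Its difference of -1.33 ± 0.66, adjusted p = 0.1 did not pass with all 6 tumours, while without tumours 1 and 3 it was -3.15 ± 0.67, adjusted p = 0.00012. Krt8 (-2.75 ± 0.46, adjusted p = 1.55e-06) and Krt18 (-2.66 ± 0.43, adjusted p = 6.53e-07), the primary keratin pair of simple epithelia, fell with and without tumours 1 and 3. Krt8 was at 8.57, 9.22, 12.01, 3.73, 9.25 and 3.31 in the skin tumours, against 3.29 to 13.03 (median 11.82) in the others, and was lowest in tumours 4 and 6. Krt19, at 11.23, 8.62, 13.11, 3.38, 11.89 and 3.70 in the skin tumours, had a difference of -0.42 ± 0.63, adjusted p = 0.618, which was -2.18 ± 0.64, adjusted p = 0.00545 without tumours 1 and 3. Of 5 tested, 2 were lower with all 6 skin tumours and 4 without those tumours, against 22.5% and 20.4% of all genes. Taken type by type, 5 of 5 were lower than in gastric, 4 than in prostatic, 4 than in uterine and 3 than in bronchial tumours. Against liver tumours 2 were lower and 2 higher, and 4 were higher than in lymphomas. Krt7 was also called lower without tumour 1 alone (-1.77, adjusted p = 0.0393), tumour 3 alone (-2.34, adjusted p = 0.00231) or tumour 5 alone (-2.07, adjusted p = 0.012).

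**Figure D1:**
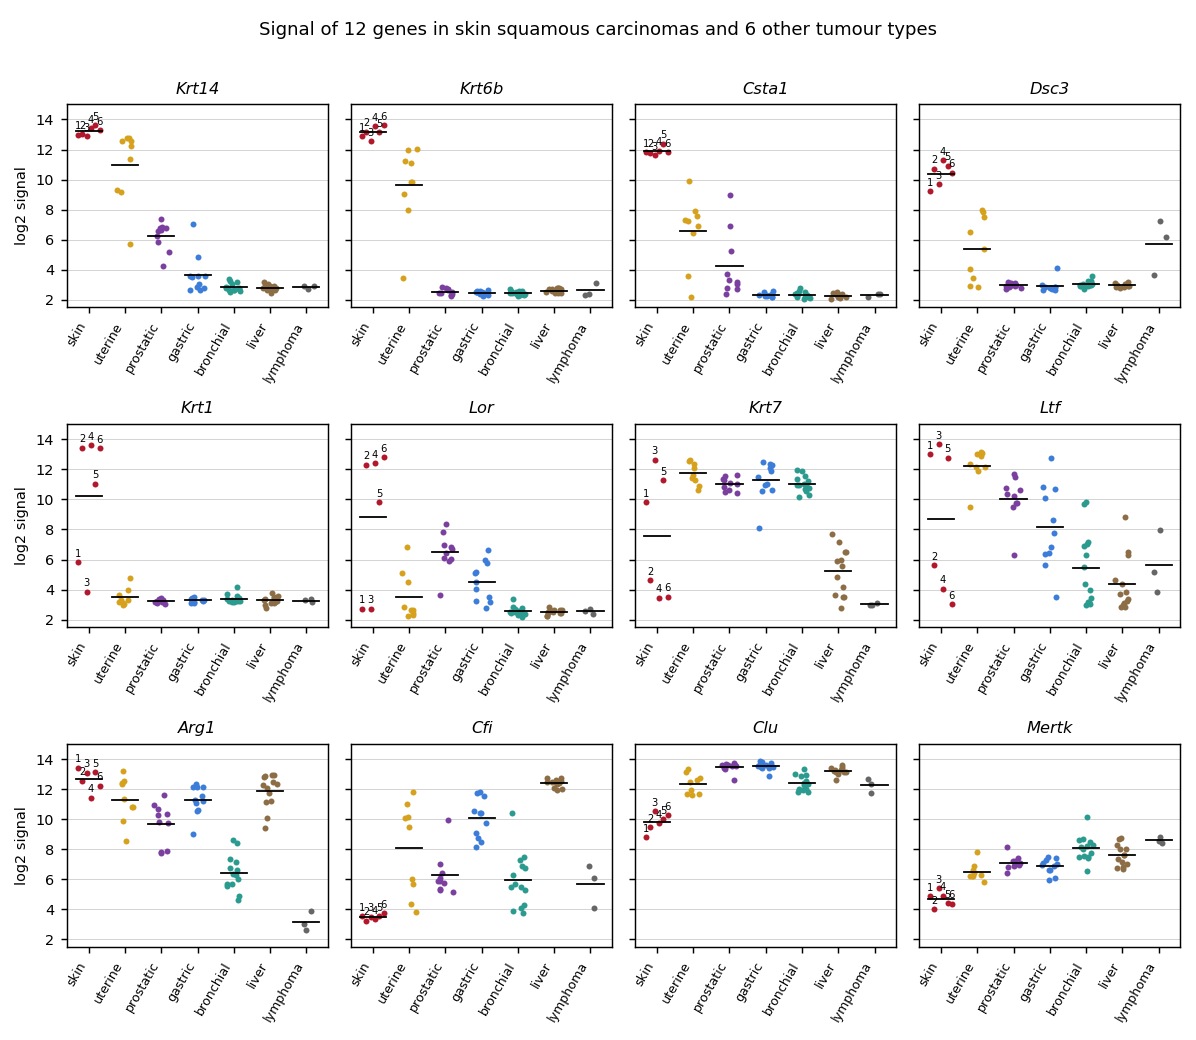
Log2 signal (vertical axis) of 12 genes in each of the 66 tumours, by tumour type, with the 6 skin tumours numbered at the left and a black line at each type's mean. Krt14, Krt6b, Csta1 and Dsc3 are high in all 6 skin tumours, Krt1 and Lor are low in skin tumours 1 and 3, Krt7 and Ltf are high in tumours 1, 3 and 5 and low in 2, 4 and 6, Arg1 is high in all 6 skin tumours and in several other types, and Cfi, Clu and Mertk are lower in the skin tumours than in the other 60.

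The genes of the cornified envelope and granular layer were the largest block of rises. Of 52 genes listed, 42 had a probe set naming 1 gene, all of these were tested, and all 42 were called higher, with a median difference of 4.96. In 8 of them the signal passed the filter on low values only through the skin tumours, and the count without that filter was the same. Higher levels than in each other type held for 34, against 4.1% of all genes. Without tumours 1 and 3 the median difference was 6.90, and 37 were higher than in each type. The number of members above all 60 other tumours was 17, 37, 8, 37, 37 and 36 in skin tumours 1 to 6, lowest in tumours 1 and 3.

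Within the block, 6 genes lay above all 60 other tumours in every skin tumour. Ppl (3.82 ± 0.24, adjusted p = 4.56e-21) and Evpl (5.10 ± 0.26, adjusted p = 2.32e-25), the envelope scaffolds periplakin and envoplakin, and Scel (4.58 ± 0.43, adjusted p = 6.21e-14), sciellin, were among them. Evpl was at 10.44, 10.34, 10.73, 10.23, 11.07 and 10.50 in the skin tumours, against 3.35 to 8.53 (median 5.60) in the others. Tgm5, a transglutaminase that crosslinks the envelope, was another, at 6.15, 7.07, 7.22, 7.49, 7.73 and 8.10 in the skin tumours, against 2.61 to 4.50 (median 3.19) in the others (4.03 ± 0.15, adjusted p = 9.16e-33). Calm4, a calcium-binding protein of differentiating keratinocytes, was at 9.28, 12.86, 8.16, 12.83, 11.68 and 13.07 in the skin tumours, against 2.47 to 7.66 (median 2.95) in the others (7.74 ± 0.42, adjusted p = 4.47e-24), lowest in tumours 1 and 3 but still without overlap. Its relative Calml3 (7.71 ± 0.40) and Krtdap (8.55 ± 0.49, adjusted p = 8.48e-23) rose as well. Krtdap was at 11.49, 13.52, 6.08, 13.28, 12.02 and 13.05 in the skin tumours, where tumour 3 was within the range of the others, whose highest was 7.76.

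The SPRR genes encode small proline-rich envelope proteins. Sprr3, the last of the 6, stood at 10.66, 11.71, 7.93, 11.04, 10.82 and 11.70 in skin tumours 1 to 6, against 2.60 to 6.49 (median 2.90) in the 60 others (7.49 ± 0.28, adjusted p = 1.12e-31), without overlap. Sprr1b was at 10.18, 12.87, 8.02, 12.97, 12.15 and 13.24 in the skin tumours, against 2.24 to 8.23 (median 2.68) in the others (8.37 ± 0.45, adjusted p = 2.91e-24), with tumour 3 inside their range. Sprr1a, at 11.99 to 13.09 (median 12.49) in the skin tumours, differed by 4.84 ± 0.61, adjusted p = 1.57e-09, but it was higher than in only 4 of the 6 types, and the highest gastric tumour reached 13.05. The Sprr2 and Lce genes come in near-identical copies, so single members of these families are uncertain.

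Several genes of proteins laid down late, in the granular and cornified layers, divided the tumours. Lor, the gene of loricrin, was at 2.73, 12.31, 2.73, 12.40, 9.82 and 12.80 in skin tumours 1 to 6, against 2.18 to 8.34 (median 2.73) in the 60 others. Tumours 1 and 3 stood at the others' median, tumours 2, 4 and 6 far above all of them and tumour 5 above as well. Its difference was 5.10 ± 0.72, adjusted p = 3.43e-08 with all 6 and 8.13 ± 0.52, adjusted p = 9.28e-21 without tumours 1 and 3. Hrnr, for hornerin, showed the same division at 2.31, 11.28, 2.46, 11.41, 8.40 and 11.97 in the skin tumours, while no other tumour passed 2.75 (5.58 ± 0.56, adjusted p = 1.02e-12). Flg, at 8.85, 11.38, 2.17, 11.17, 9.14 and 11.52 in the skin tumours and 2.03 to 3.94 (median 2.27) in the others (6.68 ± 0.45, adjusted p = 1.61e-19), was high in tumour 1 and low only in tumour 3. The late cornified envelope genes resembled Lor. Lce1d was at 2.68, 11.68, 2.39, 12.26, 9.17 and 12.40 in skin tumours 1 to 6, with a highest other value of 6.80 (5.61 ± 0.64, adjusted p = 6.16e-11). Lce3a was at 2.85, 11.93, 3.57, 12.18, 11.71 and 12.29 in the skin tumours, with a highest other value of 6.65 (5.93 ± 0.60, adjusted p = 1.29e-12). Casp14 (4.20 ± 0.46), a caspase of the dying outer layer, Cdsn (4.80 ± 0.43), corneodesmosin, and Rptn (5.97 ± 0.59), repetin, were higher as well. Ivl, involucrin, an early envelope protein, was higher than in only 2 of the 6 types, at 6.74, 10.08, 6.62, 6.05, 7.95 and 7.34 in the skin tumours, against 2.49 to 10.78 (median 6.24) in the others (1.80 ± 0.70, adjusted p = 0.032). Leaving out tumour 2 (difference 1.27, adjusted p = 0.179), tumour 5 (1.70, adjusted p = 0.0721) or tumour 6 (1.82, adjusted p = 0.0526) ended the call of Ivl.

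Many of these genes sit side by side on chromosome 3 in the epidermal differentiation complex, whose ends are marked by S100a1 and S100a10. Of the genes that RefSeq places between them, 48 had a value and 44 were tested. In the skin tumours 42 were higher, beside 19.2% of all genes, with a median difference of 4.50. Higher levels than in each other type held for 26, beside 4.1% of all genes. Most of the 44 are members of the gene lists counted in this report, so these counts are not independent of those. The exceptions lay at the S100a1 end, where S100a1 was lower (-1.47, adjusted p = 4.55e-08) and S100a13 was not called (-0.31, adjusted p = 0.251). Of the 12 genes there that no list held, 10 were higher, with a median of 1.47. Without tumour 1, S100a13 was called lower (-0.61, adjusted p = 0.0194).

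**Figure D2:**
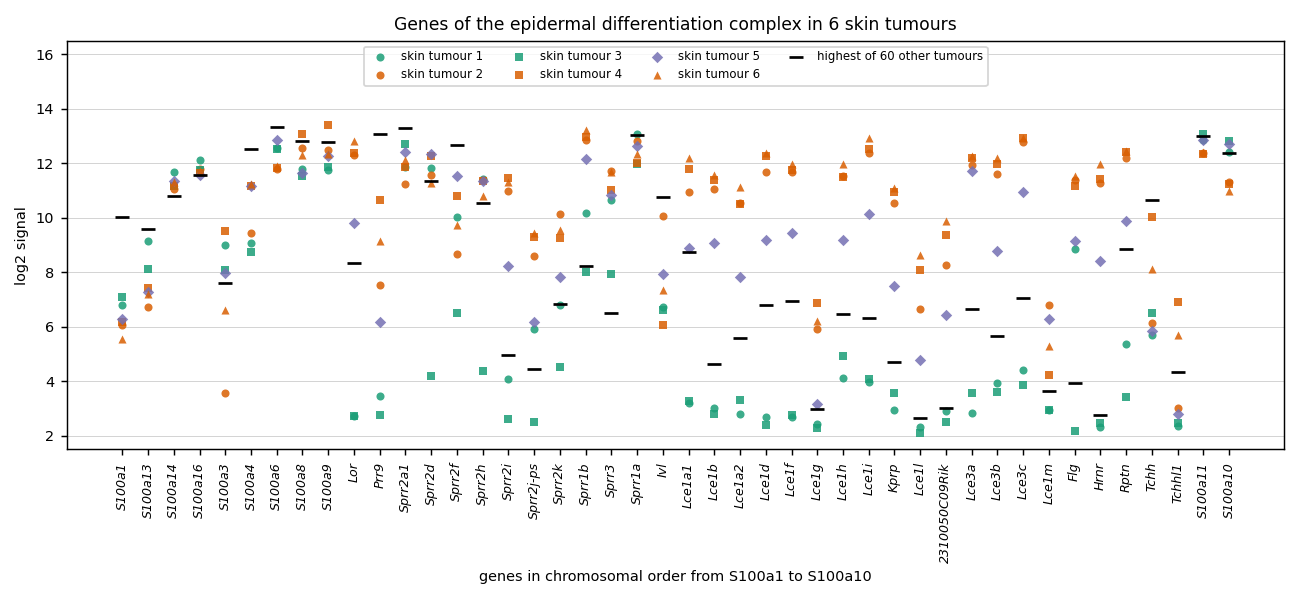
Log2 signal (vertical axis) of the tested genes of the epidermal differentiation complex in chromosomal order (horizontal axis), with a marker for each skin tumour and a black dash at the highest of the 60 other tumours. Tumours 2, 4 and 6 and, somewhat lower, tumour 5 lie above the dash for most genes from Lor to Rptn, tumours 1 and 3 lie at or below it for most of these, and all 6 lie below it for S100a1 and S100a13.

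Skeletal muscle and hair follicle lists stood highest in tumours 2, 4 and 6, the same 3 skin tumours as the late envelope genes, and their part in these results was not tested. The mean level of the 16 tested muscle genes was 3.36, 6.49, 3.31, 7.74, 4.22 and 7.63 in skin tumours 1 to 6, against 3.05 to 7.56 in prostatic and 3.14 to 6.97 in uterine tumours. Acta1, skeletal actin, was at 4.32, 10.89, 3.997, 11.21, 5.57 and 10.75 in the skin tumours and 2.70 to 11.61 (median 3.82) in the others. In all, 15 of 16 muscle genes were called higher (15 without tumours 1 and 3), with medians of 2.17 and 3.32. The shares of all genes were 19.2% and 17.3%. The filter was passed only through the skin tumours by 1 of the 16, and without the filter 15 of 16 were higher.

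The mean level of the hair follicle genes was 4.37, 5.36, 4.06, 8.01, 4.29 and 6.30 in skin tumours 1 to 6, against 3.56 to 4.37 in prostatic and 3.64 to 4.16 in uterine tumours. Of 29 hair follicle genes on the array, 27 were tested and 20 were higher in the skin tumours, 11 of those tested having passed the filter through the skin tumours alone. Without the filter 21 of 29 were higher. Krt25, an inner root sheath keratin, was at 3.05, 6.30, 3.07, 10.30, 4.12 and 8.80 in skin tumours 1 to 6, against 2.19 to 3.11 (median 2.49) in the 60 others (3.45 ± 0.39, adjusted p = 4.42e-11). Tumours 4, 6 and 2 had, in that order, its highest values. Krt33a (3.09 ± 0.42) and Krt34 (2.61 ± 0.37) of the shaft were highest in tumour 4 as well, at 10.77 and 10.19. Krt79, a keratin of the upper follicle, was high in all 6 instead, at 9.14, 11.99, 8.16, 9.996, 9.48 and 10.63 in the skin tumours, against 2.99 to 9.85 (median 4.16) in the others (5.505 ± 0.43, adjusted p = 5.06e-17). Lgr5 (-0.75 ± 0.57, adjusted p = 0.302) and Lgr6 (0.36 ± 0.32, adjusted p = 0.387), receptors that mark follicle stem cells, did not pass.

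Proteases, protease inhibitors and lipid enzymes of the barrier followed the envelope genes. Of 20 tested proteases and inhibitors 19 were higher, with a median of 4.79 (18 and 6.20 without tumours 1 and 3), and the exception was Wfdc21. Of these genes 6 passed the filter on low values only through the skin tumours, and without the filter 19 of 20 were higher. Csta1, the cysteine protease inhibitor stefin A1, was at 11.82, 11.80, 11.62, 11.93, 12.40 and 11.81 in the skin tumours, against 2.06 to 9.93 (median 2.39) in the others (8.55 ± 0.51, adjusted p = 4.74e-22), so the groups did not overlap. Cst6, an inhibitor of cornification proteases, was at 5.79, 11.64, 5.56, 10.81, 9.63 and 11.27 in the skin tumours, against 2.49 to 5.02 (median 3.05) in the others (5.82 ± 0.39, adjusted p = 4.87e-20). It too lay above every other tumour, with tumours 1 and 3 far lower than the other 4. Klk7, a kallikrein that sheds corneocytes, was at 3.13, 12.38, 3.18, 11.44, 9.18 and 11.55 in the skin tumours and 2.85 to 6.51 (median 3.35) in the others (5.06 ± 0.56, adjusted p = 2.63e-11), with tumours 1 and 3 at the others' level. Its inhibitor Spink5 was at 9.44 to 11.42 (median 10.78) in the skin tumours and so high in all 6, against 2.38 to 10.63 (median 2.76) in the others (7.15 ± 0.57, adjusted p = 1.17e-16). Serpinb2, an inhibitor of urokinase, was at 9.36 to 10.74 (median 10.14) in the skin tumours, against 2.002 to 9.47 (median 2.89) in the others (6.22 ± 0.57, adjusted p = 3.22e-14).

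Of the 17 tested lipid barrier genes 15 were higher (median 2.98), the exceptions being Smpd1 and Ugcg, or 16 without tumours 1 and 3. The filter was passed only through the skin tumours by 3 of them, and without the filter 16 of 18 were higher. Lipm, an epidermal lipase, lay above all others at 6.37, 9.03, 6.59, 9.03, 7.83 and 8.90 in the skin tumours, against 2.21 to 4.35 (median 2.52) in the others (5.28 ± 0.22, adjusted p = 4.89e-30). Elovl4, which makes very long fatty acids, was at 3.53, 11.25, 2.45, 10.28, 9.29 and 10.68 in the skin tumours, against 2.504 to 7.57 (median 2.76) in the others (4.65 ± 0.52, adjusted p = 3.8e-11). Alox12b, a lipoxygenase of the lipid envelope, was at 3.11, 8.15, 2.52, 8.18, 6.43 and 8.75 in the skin tumours, against 2.32 to 3.26 (median 2.60) in the others (3.56 ± 0.35, adjusted p = 2.87e-13), again with tumours 1 and 3 among the others.

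**Figure D3:**
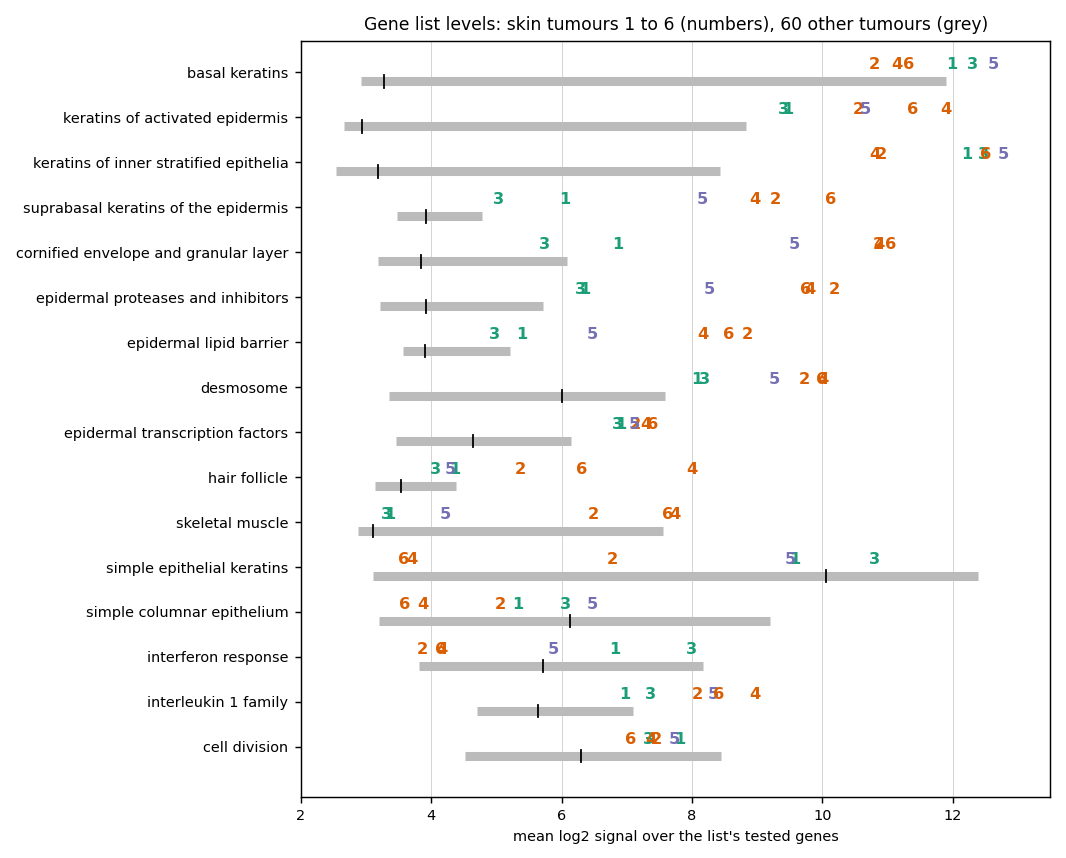
Mean log2 signal over the tested genes of 16 gene lists (horizontal axis), with skin tumours 1 to 6 as numbers and the 60 other tumours as a grey bar from lowest to highest with a black tick at their median. All 6 skin tumours lie above the bar for keratins of activated epidermis, of inner stratified epithelia and of the suprabasal layers, proteases, desmosome and transcription factors, 3 of 6 do for basal keratins, and tumours 2, 4 and 6 lie to the right of 1 and 3 for cornified envelope, lipid barrier and muscle genes and to the left of them for simple keratin and interferon response genes.

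Desmosome genes, whose products rivet keratinocytes together, were mostly higher. Of 11 tested genes 9 were higher and 1 lower, and 6 lay above all 60 other tumours in every skin tumour, and 3 passed the filter only through the skin tumours. Dsc3, the desmocollin of the basal layers, was at 9.23, 10.73, 9.68, 11.31, 10.91 and 10.47 in the skin tumours, against 2.65 to 7.95 (median 2.97) in the others (6.56 ± 0.39, adjusted p = 2.27e-22). Pkp1, the plakophilin of stratified epithelia, stood at 11.32, 11.63, 11.07, 11.95, 11.77 and 12.16 in the skin tumours and 3.16 to 10.89 (median 5.07) in the others (5.86 ± 0.43, adjusted p = 7.35e-18), again without overlap. Its relative Pkp2, of simple epithelia and heart, was the gene that fell, at 5.46, 5.01, 8.01, 3.71, 6.67 and 2.95 in the skin tumours, against 2.85 to 9.78 (median 8.45) in the others (-2.15 ± 0.30, adjusted p = 1.6e-08). Perp (4.25 ± 0.41, adjusted p = 1.84e-13), a p63 target of the desmosome, and Dsp (3.39 ± 0.25, adjusted p = 3.63e-18), desmoplakin, rose, with all 6 skin tumours above every other. Dsg1a (4.63 ± 0.47), Dsg1b (5.02 ± 0.42) and Dsc1 (3.20 ± 0.40), of the outer layers, were near the others' level in tumours 1 and 3. Dsc1 was at 2.88, 8.32, 2.81, 8.79, 3.34 and 9.09 in skin tumours 1 to 6 and 2.26 to 3.16 (median 2.68) in the others, so that tumour 5 was also low for it.

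Hemidesmosome genes, which anchor basal cells to the basement membrane, were higher than the mean of the other types but mostly not higher than in uterine or gastric tumours. Of 12 tested 7 were higher and 1 lower, and 1, Col17a1, was higher than in each type (in 5 of the 6 comparisons without tumours 1 and 3). Against gastric tumours 2 were higher and 4 lower. Col17a1, a collagen that spans the basal membrane, was at 10.95, 9.66, 9.97, 9.86, 10.63 and 10.36 in the skin tumours, against 2.33 to 11.15 (median 2.83) in the others (6.03 ± 0.44, adjusted p = 3.52e-18). Col7a1 (2.97 ± 0.26), of the anchoring fibrils, Lama3 (2.73 ± 0.46) and Itgb4 (2.56 ± 0.33) were higher too. The single fall, Dst (dystonin, -1.22 ± 0.19, adjusted p = 6.66e-07), rests on its brightest probe set: the mean over its probe sets gave a difference of 1.70.

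Transcription factors of the epidermis differed little between the skin tumours, with a mean list level of 6.90, 7.13, 6.86, 7.29, 7.11 and 7.39 in tumours 1 to 6. Of 39 on the array 36 were tested, and 28 were higher and 1 lower, beside 19.2% and 22.5% of all genes. Their median difference was 2.40 (2.48 without tumours 1 and 3). Higher levels than in each type held for 15, against 4.1% of all genes. In 3 the signal passed the filter only through the skin tumours. Without the filter 28 of 39 were higher, with a median of 2.12. Trp63 differed by 5.86 ± 0.39, adjusted p = 8.1e-20. Grhl3, a grainyhead factor needed for the barrier, was at 8.17, 8.72, 7.31, 8.92, 9.28 and 9.02 in the skin tumours, against 2.21 to 7.61 (median 2.67) in the others (5.11 ± 0.31, adjusted p = 7.38e-22). Zfp750, a p63 target that promotes differentiation, lay above all others at 8.43, 9.17, 9.11, 8.81, 9.08 and 9.35 in the skin tumours, against 3.29 to 7.87 (median 4.65) in the others (3.96 ± 0.26, adjusted p = 5.66e-20). Ovol1 (3.76 ± 0.27), Prdm1 (2.62 ± 0.31) and Barx2 (2.23 ± 0.12) did not overlap with the other tumours either. Klf4, which drives terminal differentiation, was 10.27 to 11.68 (median 11.36) in the skin tumours and differed by 3.28 ± 0.38, adjusted p = 1.2e-10. Pitx1, a homeobox gene of hindlimb and oral epithelium, was at 10.16, 9.31, 7.42, 9.29, 8.25 and 9.74 in the skin tumours, against 2.45 to 9.38 (median 3.19) in the others (5.11 ± 0.47, adjusted p = 5.32e-14). Sox2, a stem cell factor expressed in squamous carcinomas, was at 9.23, 8.30, 9.68, 6.58, 9.86 and 7.56 in the skin tumours, against 2.24 to 8.86 (median 3.06) in the others (4.64 ± 0.64, adjusted p = 1.8e-08), with tumours 1, 3 and 5 highest. The fall was that of Satb1 (-1.81 ± 0.41, adjusted p = 0.000242), a chromatin organiser downstream of p63 in mouse epidermis.

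Receptors and ligands of the EGF family, which drives keratinocyte growth, were more often higher than lower. Of 12 tested 8 were higher (66.7%, beside 19.2% of all genes) and 1 lower, or 6 and 1 without tumours 1 and 3. Among the ligands, Epgn (epigen) was at 6.78, 7.92, 7.61, 9.14, 6.01 and 9.003 in the skin tumours, against 2.47 to 6.44 (median 2.86) in the others (4.73 ± 0.28, adjusted p = 1.64e-22), the only one higher than in each type. Ereg (epiregulin) was at 8.40 to 9.78 (median 8.66) in the skin tumours, against 2.97 to 10.33 (median 4.96) in the others (3.64 ± 0.62, adjusted p = 2.08e-06), where a liver tumour was highest. Of the receptors, Egfr was at 7.64 to 8.75 (median 7.9995) in the skin tumours, against 2.56 to 10.68 (median 7.26) in the others (1.73 ± 0.35, adjusted p = 5.91e-05), and Erbb2 differed by 1.82 ± 0.24, adjusted p = 8.85e-09. Errfi1, which encodes an inhibitor of EGF receptors, was lower (-0.65 ± 0.22, adjusted p = 0.0148). It was not called without tumour 2 (-0.54, adjusted p = 0.0709) or tumour 6 (-0.55, adjusted p = 0.0646).

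Members of the Notch, Wnt and hedgehog pathways moved in both directions, and most members were not called. In the Notch list 6 of 16 were higher (37.5%, beside 19.2% of all genes) and 1 lower. The same counts held without tumours 1 and 3. The receptor Notch3 was at 8.61, 8.92, 8.83, 8.53, 9.01 and 9.11 in the skin tumours, against 4.27 to 8.87 (median 5.94) in the others (2.79 ± 0.24, adjusted p = 3.05e-15). Nrarp, a target and inhibitor of the pathway, was at 8.77, 9.67, 8.48, 9.60, 7.97 and 9.98 in the skin tumours, against 4.72 to 8.88 (median 6.44) in the others (2.76 ± 0.38, adjusted p = 1.69e-08). Jag1, a ligand, was higher too (1.83 ± 0.43, adjusted p = 0.000358). Of 27 Wnt genes 6 were higher and 3 lower, shares of 22.2% and 11.1% beside 19.2% and 22.5% of all genes. The ligands Wnt4 (3.91 ± 0.32, adjusted p = 2.82e-16) and Wnt10a (2.63 ± 0.35, adjusted p = 9.38e-09) were higher than in each type. Wnt4 was at 9.52 to 10.29 (median 10.11) in the skin tumours, against 3.25 to 10.11 (median 6.53) in the others. Nkd1 (-1.98 ± 0.46, adjusted p = 0.000348) and Sp5 (-1.66 ± 0.54, adjusted p = 0.0102), targets that report Wnt signalling, were lower, and Axin2, another, did not pass (-0.68 ± 0.45, adjusted p = 0.23). Taken type by type, 13 of 27 Wnt genes were lower and 4 higher than in prostatic tumours, while only 1 to 3 were lower than in any other type. Without tumours 1 and 3, 6 Wnt genes were higher and 1 lower, and Sp5 was not called (-1.59 ± 0.66, adjusted p = 0.0504). In the hedgehog list 4 of 13 were higher (30.8%) and 1 lower (7.69%), or 6 and 1 without tumours 1 and 3. Ptch1, receptor and target of the pathway, was lower (-0.86 ± 0.20, adjusted p = 0.000329) and Gli3 higher (1.43 ± 0.25, adjusted p = 5.89e-06). Of 14 YAP pathway genes 3 were higher (21.4%) and 2 lower (14.3%), near or below the shares of all genes.

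Genes linked to invasion showed no common direction, with 7 of 23 higher and 3 lower (5 and 3 without tumours 1 and 3). With all the skin tumours these were 30.4% and 13%, beside 19.2% and 22.5% of all genes. Snai2, a repressor also used by basal keratinocytes, was at 7.07, 7.54, 7.001, 7.79, 7.27 and 7.29 in the skin tumours, against 2.42 to 7.20 (median 3.93) in the others (3.14 ± 0.33, adjusted p = 3.71e-12). Cdh3 (P-cadherin), a basal cell cadherin, was higher than in each type, at 5.31 to 5.75 (median 5.61) in the skin tumours, against 2.77 to 6.14 (median 3.48) in the others (1.90 ± 0.17, adjusted p = 3.92e-14). Zeb2, a mesenchymal repressor, was lower than in each type, at 5.33, 5.11, 5.05, 5.60, 4.64 and 4.69 in the skin tumours and 4.44 to 8.87 (median 6.64) in the others (-1.80 ± 0.35, adjusted p = 2.86e-05). Zeb1 (-1.001 ± 0.27) and Cdh2, N-cadherin (-2.26 ± 0.41), fell as well, whereas vimentin did not pass (Vim, -0.70 ± 0.36, adjusted p = 0.109). Among 18 matrix proteases and their inhibitors 6 were higher (33.3%) and 2 lower (11.1%), and Mmp13 (2.21 ± 0.64, adjusted p = 0.00403) and Mmp3 (2.23 ± 0.60, adjusted p = 0.00195) had the largest rises. Of 18 fibroblast and matrix genes 4 were higher (22.2%, near the share of all genes), and 1, Fn1 (fibronectin), was lower. Among the 4 were Tnc (tenascin C, 2.43 ± 0.50, adjusted p = 7.25e-05) and Postn (periostin, 2.04 ± 0.42, adjusted p = 7.39e-05). Without tumours 1 and 3 those counts were 4 and 4 of 18 matrix proteases and 2 and 1 of 18 fibroblast genes. Fibroblast genes stood between the types, with 14 of 18 higher than in liver, 12 than in bronchial tumours and 10 than in lymphomas, but none higher than in gastric, prostatic or uterine tumours. Of the 18 matrix proteases and inhibitors 10 were higher and 4 lower than in bronchial tumours, and 9 and 1 than in liver tumours. Against lymphomas 6 were higher and none lower. Against gastric tumours none was higher and 9 were lower, against uterine none and 7, and against prostatic 4 and 6. Vimentin was called lower without tumour 4 (-0.93, adjusted p = 0.048).

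Interleukin 1 relatives that keratinocytes make were higher in the skin tumours. Of 13 tested 11 were higher and none lower (10 and none without tumours 1 and 3), with a median of 2.09, beside 19.2% of all genes higher. The filter was passed only through the skin tumours by 1 of them. Without the filter 12 of 14 were higher, with a median of 1.81. Il1f8, which encodes interleukin 36 beta, was at 3.27, 8.50, 3.58, 9.21, 7.85 and 8.80 in skin tumours 1 to 6, against 2.30 to 3.21 (median 2.72) in the 60 others (4.19 ± 0.34, adjusted p = 4.36e-16). All 6 lay above every other tumour, tumours 1 and 3 only just. Il1f6 (4.88 ± 0.70, adjusted p = 4.5e-08) and Il1f9 (4.59 ± 0.47, adjusted p = 2.62e-12), for the alpha and gamma forms, Il1f5 (2.91 ± 0.31, adjusted p = 1.22e-11), for their antagonist, and Il1rl2 (2.43 ± 0.27, adjusted p = 2.17e-11), for the shared receptor, were higher too. Il1rn, the antagonist of interleukin 1 itself, was at 7.69 to 9.75 (median 9.09) in the skin tumours, against 4.18 to 9.08 (median 6.41) in the others (2.32 ± 0.48, adjusted p = 7.75e-05). Il1b was at 9.04, 7.26, 9.95, 10.48, 11.12 and 7.70 in the skin tumours, against 3.73 to 9.88 (median 6.89) in the others (2.09 ± 0.54, adjusted p = 0.00138), and its order over the tumours followed neither set.

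Antimicrobial genes were largely higher, with 10 of 15 up and 1 down (11 and 1 without tumours 1 and 3), beside 19.2% and 22.5% of all genes. The filter was passed only through the skin tumours by 2 of them. Without the filter 10 of 17 were higher and 1 lower, and the median difference was 1.36 in place of 2.63. S100a8, which with S100a9 forms calprotectin in neutrophils and stressed keratinocytes, was at 11.53 to 13.06 (median 12.05) in the skin tumours, against 4.15 to 12.81 (median 9.04) in the others (2.75 ± 0.65, adjusted p = 0.000449), the highest of them bronchial. S100a9 differed by 3.01 ± 0.69, adjusted p = 0.000315. Defb4, a beta defensin, was at 3.61, 11.13, 2.67, 11.40, 4.45 and 11.43 in skin tumours 1 to 6, against 2.32 to 3.13 (median 2.64) in the others (4.79 ± 0.53, adjusted p = 3.47e-11), so that tumours 2, 4 and 6 stood far above the rest. S100a14 (4.59 ± 0.48, adjusted p = 3.29e-12) was even across the tumours and above all others. Lcn2, the iron-binding lipocalin, was the gene that fell (-1.12 ± 0.44, adjusted p = 0.0329). Its call ended without tumour 1 (-1.14, adjusted p = 0.0522), tumour 5 (-0.90, adjusted p = 0.13) or tumour 6 (-0.81, adjusted p = 0.169).

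Neutrophil genes and their chemokines gave fewer calls without tumours 1 and 3. Of 15 neutrophil genes 7 were higher with all 6 tumours (46.7%, beside 19.2% of all genes). Without those it was 3, beside 17.3% of all genes, and none was lower in either. The list's mean level was 7.30, 5.77, 7.21, 7.06, 7.15 and 5.54 in skin tumours 1 to 6, lowest in 2 and 6. Ppbp, a neutrophil chemoattractant, was at 13.16, 4.36, 13.13, 9.74, 12.70 and 5.49 in the skin tumours, against 2.65 to 12.37 (median 6.02) in the others (3.19 ± 0.85, adjusted p = 0.00183 with all 6, 1.502 ± 0.96, adjusted p = 0.222 without tumours 1 and 3). Cxcl5 had the same form (2.94 ± 0.72, adjusted p = 0.000697 and 1.62 ± 0.82, adjusted p = 0.115). Ltf, lactoferrin, which glands and neutrophils make, had the largest SD over the skin tumours of the genes that have a full name, at 13.02, 5.64, 13.68, 4.07, 12.76 and 3.02 in tumours 1 to 6. The uterine tumours ran from 9.51 to 13.16, and its difference did not pass (1.05 ± 1.04, adjusted p = 0.435). Of 22 chemokines 3 were higher and 4 lower (1 and 4 without tumours 1 and 3). With all 6 these were 13.6% and 18.2%, below the 19.2% and 22.5% of all genes. Cxcl13, which draws B cells, was lower (-3.71 ± 0.86, adjusted p = 0.000365).

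Macrophage and monocyte genes were lower in the skin tumours. Of 16 tested 11 were lower and 1 higher, with a median of -1.63, and the same counts held without tumours 1 and 3 (median -1.55). Csf1r, the receptor that macrophages need to survive, was lower than in each other type, at 5.98, 5.62, 6.13, 6.34, 4.58 and 6.13 in the skin tumours and 5.19 to 9.59 (median 7.09) in the others (-1.58 ± 0.33, adjusted p = 9.9e-05). C1qa, a complement component of tissue macrophages, was at 8.06, 7.28, 8.23, 8.45, 4.82 and 7.52 in the skin tumours, with tumour 5 lowest, against 6.9996 to 11.55 (median 9.42) in the others (-2.29 ± 0.36, adjusted p = 4.3e-07). The gene that rose was Arg1, an arginase made by liver, keratinocytes and some macrophages, at 13.43, 12.55, 13.10, 11.42, 13.11 and 12.24 in the skin tumours, against 2.63 to 13.23 (median 10.59) in the others (3.68 ± 0.50, adjusted p = 1.15e-08).

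Lymphocyte and antigen-presentation genes were also lower than the mean of the other types, but fewer were called when the 3 lymphomas were left out. Over all genes 22.5% were lower with the lymphomas and 21.8% without them, where 19.9% were higher. Of 13 T and NK cell genes 9 were lower, and 1 of 12 when lymphomas were left out. Without skin tumours 1 and 3 it was 6 of 13. Of 9 MHC class II genes 8 were lower, and 3 without lymphomas. The B cell genes gave 5 lower of 10, and 3 without lymphomas, and Langerhans and dendritic cell genes 4 of 11, and none without lymphomas. Macrophage genes gave 12 lower of 16 without them. Jchain, the joining chain of secreted antibodies, was highest in tumour 2, at 3.44, 8.54, 3.97, 3.46, 3.601 and 4.74 in the skin tumours, against 2.73 to 11.92 (median 8.78) in the others (-4.01 ± 0.84, adjusted p = 8.43e-05).

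Interferon response genes were higher in tumours 1, 3 and 5 than in the other 3. Their mean level was 6.81, 3.86, 7.99, 4.16, 5.87 and 4.14 in skin tumours 1 to 6, against 6.18 to 7.01 in uterine tumours. With all 6 tumours 1 of 11 was lower, and without tumours 1 and 3 it was 6. Ifit1, an antiviral protein, was at 8.94, 3.57, 11.35, 3.41, 6.45 and 3.58 in the skin tumours, against 2.72 to 9.66 (median 6.46) in the others (-0.30 ± 0.68, adjusted p = 0.747).

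**Figure D4:**
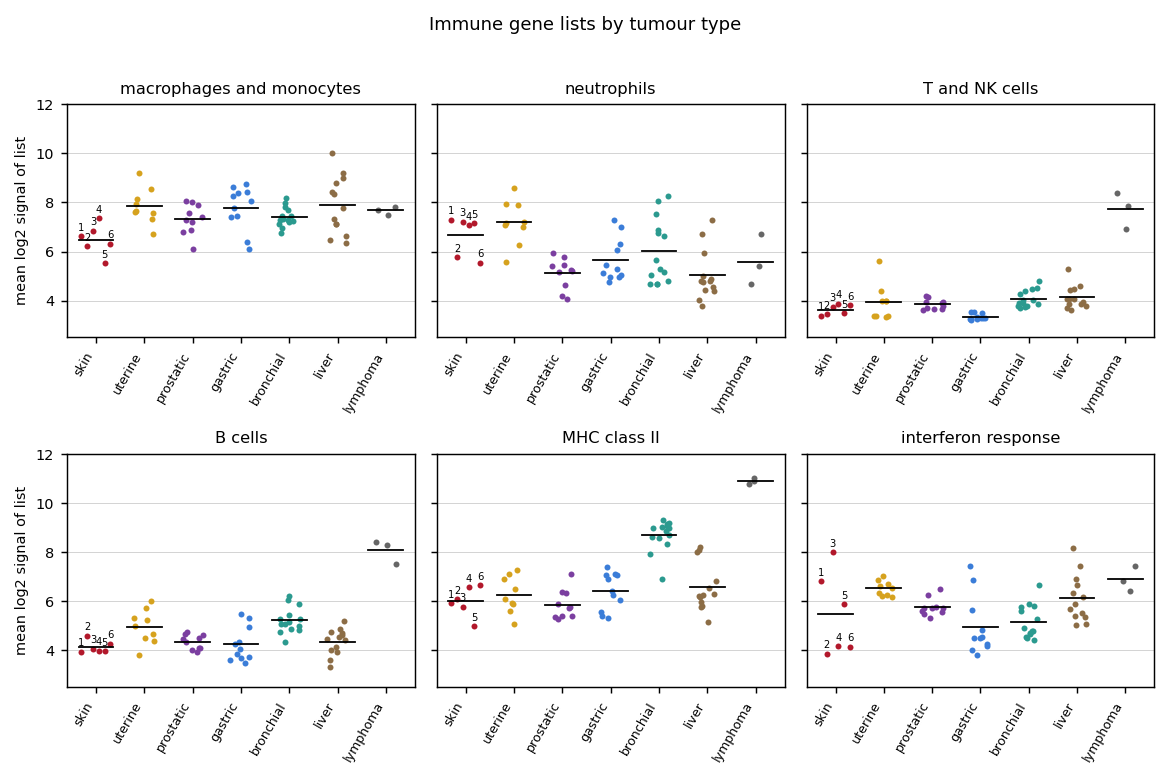
Mean log2 signal over the tested genes of 6 immune gene lists (vertical axis) in each of the 66 tumours, by tumour type, with the 6 skin tumours numbered at the left and a black line at each type's mean. The skin mean is the lowest for macrophage genes, the 3 lymphomas stand far above all types for T and NK cell, B cell and MHC class II genes, and skin tumours 1 and 3 lie above 2, 4 and 6 for interferon response genes.

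The lists of other cells in skin gave small counts, to be read beside 19.2% of all genes higher and 22.5% lower. Of 15 endothelial genes 1 was lower and none higher, and none was called without tumour 5. In that tumour 8 of 15 endothelial, 6 of 16 macrophage and 3 of 9 MHC class II genes lay below all 60 other tumours. In each other skin tumour no endothelial or MHC class II gene did, and at most 1 macrophage gene. The share of all genes below all others in tumour 5 alone was not counted, so these counts have no baseline. The mean endothelial level of tumour 5 was 4.45, under the lowest of the others, 4.87. Of 5 melanocyte genes tested 2 were lower and none higher, and Mlana, a melanosome protein, was at 2.38 to 2.74 (median 2.62) in the skin tumours, against 2.13 to 8.40 (median 2.49) in the others. Of 8 adipocyte genes 2 were higher and 2 lower, and Adipoq, the fat cell hormone adiponectin, was at 2.83 to 3.21 (median 2.95) in the skin tumours, against 2.56 to 10.83 (median 2.94) in the others. Of 10 sebaceous gland genes 5 were higher and 1 lower. Far2, which makes wax alcohols in that gland, was at 2.55, 9.60, 2.58, 6.54, 8.52 and 6.37 in the skin tumours, against 2.05 to 3.12 (median 2.55) in the others (3.45 ± 0.38, adjusted p = 1.61e-11), and so was high in tumours 2, 4, 5 and 6 alone.

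Some genes of simple columnar epithelium were lower, at a share somewhat above that of all genes. Of 26 tested 9 were lower and 3 higher (8 and 1 without tumours 1 and 3), which is 34.6% lower beside 22.5% of all genes. Foxa2, a pioneer factor of endodermal epithelium, was at 3.79, 4.28, 3.49, 3.26, 3.40 and 3.77 in the skin tumours, against 3.61 to 9.48 (median 7.92) in the others (-3.11 ± 0.28, adjusted p = 1.52e-14). Gata6 (-2.74 ± 0.41, adjusted p = 1.84e-07) and Cldn3 (-2.23 ± 0.46, adjusted p = 7.95e-05) fell too. Foxa1, its relative, was at 9.94, 5.08, 9.07, 3.09, 9.38 and 2.78 in the skin tumours, against 2.77 to 11.48 (median 8.34) in the others, and did not pass (-0.93 ± 0.57, adjusted p = 0.189). Prom1, whose mutants the series concerns, was at 6.31, 3.77, 9.37, 3.76, 10.27 and 2.71 in the skin tumours, against 2.45 to 11.29 (median 7.93) in the others, and did not pass either (-0.99 ± 0.91, adjusted p = 0.399). Both were highest in tumours 1, 3 and 5. Of 9 other genes of tight junctions, 3 were higher, and Cldn1, the claudin of the epidermal barrier, was among them (2.42 ± 0.51, adjusted p = 8.72e-05). Foxa1 was called lower without tumour 1 (-1.61, adjusted p = 0.0232), tumour 3 (-1.44, adjusted p = 0.0497) or tumour 5 (-1.50, adjusted p = 0.041).

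Cell division genes were higher than the mean of the other types, but not higher than in lymphomas, where 8 of 27 were lower in skin, or in uterine tumours, where none was called. Of 27 tested 16 were higher (59.3%, beside 19.2% of all genes) and none lower with all 6. Without tumours 1 and 3, 8 were higher and 1 lower, beside 17.3% and 20.4% of all genes. The list's mean level was 7.82, 7.45, 7.34, 7.37, 7.73 and 7.06 in skin tumours 1 to 6, 6.35 to 7.95 in uterine tumours, 4.71 to 6.54 in bronchial tumours and 8.04 to 8.44 in lymphomas. Mki67, the proliferation antigen, was at 8.61 to 9.54 (median 9.13) in the skin tumours, against 3.08 to 10.63 (median 7.56) in the others (1.25 ± 0.41, adjusted p = 0.0102), and Top2a differed by 1.44 ± 0.41, adjusted p = 0.00304. Among 22 cancer drivers and brakes 4 were higher and 3 lower (5 and 5 without tumours 1 and 3). With all 6 skin tumours these were 18.2% and 13.6%, not above the 19.2% and 22.5% of all genes. Tgfbr2, a receptor of the growth inhibitor TGF-beta, was lower than in each type although tumour 3 was above the others' median, at 8.22, 8.56, 10.13, 9.32, 9.29 and 9.21 in the skin tumours, against 8.43 to 11.03 (median 9.98) in the others (-0.92 ± 0.18, adjusted p = 3.56e-05), and Tgfbr1 was lower as well (-0.82 ± 0.20, adjusted p = 0.000594). Nfe2l2, the regulator of the oxidant response, was higher (0.76 ± 0.17, adjusted p = 0.000176). Of 21 glycolysis and hypoxia genes 6 were higher (28.6%) and none lower. Car12, a carbonic anhydrase, was higher than in each type at 9.202, 9.41, 8.57, 9.73, 9.63 and 9.85 in the skin tumours, against 2.39 to 9.85 (median 3.05) in the others (5.35 ± 0.27, adjusted p = 1.72e-25).

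**Figure D5:**
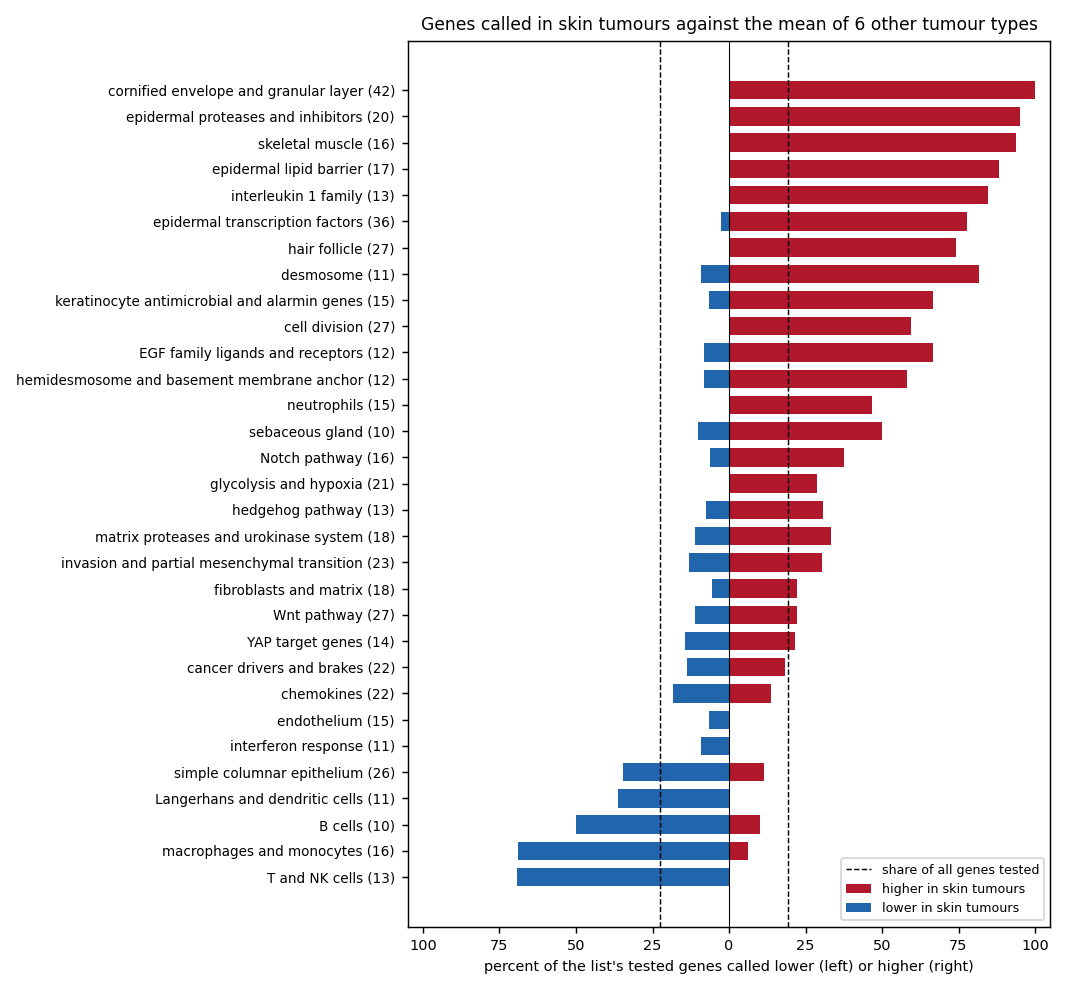
Percent of each list's tested genes called higher (right, red) or lower (left, blue) in skin tumours than the mean of the 6 other types, for lists with at least 10 tested genes (number tested in brackets), with dashed lines at the shares of all genes, 19.2% higher and 22.5% lower. Cornified envelope, protease, muscle and lipid barrier genes have the largest shares higher, and macrophage and T and NK cell genes the largest shares lower.

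Each type was also taken alone. Against hepatocellular carcinomas, 4145 genes (30.8%) were higher and 3327 (24.7%) lower, and against bronchial adenomas 3507 (26.1%) and 3251 (24.2%). The gastric comparison gave 2415 (17.9%) and 2772 (20.6%), the prostatic 2071 (15.4%) and 2622 (19.5%), and the lymphoma 2656 (19.7%) and 2906 (21.6%). Uterine adenocarcinomas differed in the fewest genes, with 1419 (10.5%) higher and 1834 (13.6%) lower in skin. Group sizes differ, so these counts do not rank the types by likeness. The type means correlated with the skin mean across genes at 0.921 for uterine, 0.887 for prostatic, 0.876 for gastric, 0.827 for bronchial, 0.759 for lymphoma and 0.724 for liver tumours.

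The uterine tumours shared much of the basal programme and less of the outer layers. Krt14 in the 9 uterine tumours ran from 5.69 to 12.78 with a median of 12.27, and Krt1 from 2.98 to 4.79, below 5 of the 6 skin tumours. Skin minus uterine, the median difference was 2.03 for the 3 basal keratins and 4.30 for the 6 suprabasal ones. Cornified envelope genes were higher than in uterine tumours in 37 of 42, proteases and inhibitors in 17 of 20 and desmosome genes in 9 of 11. Hemidesmosome genes were higher in 1 and lower in 4 of 12. Fibroblast genes were lower in 6 of 18, matrix proteases in 7 of 18, macrophage genes in 9 of 16 and simple keratins in 4 of 5, with none of these lists' genes higher. The median difference of cell division genes was -0.04.

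The other rises without overlap, chosen by size, were Lgals7, Crabp2 and Ly6g6c. Lgals7, a galectin of stratified epithelia, was at 10.71, 12.35, 10.10, 11.72, 10.52 and 11.99 in the skin tumours, against 2.64 to 9.94 (median 3.41) in the others (7.21 ± 0.38, adjusted p = 1.8e-24). Crabp2, which carries retinoic acid to its receptor, was at 11.11, 11.29, 9.92, 10.55, 10.95 and 10.86 in the skin tumours, against 2.497 to 9.73 (median 3.11) in the others (6.604 ± 0.30, adjusted p = 5.43e-28). Ly6g6c, a membrane-anchored Ly6 protein, was at 5.63, 10.47, 6.71, 10.25, 8.66 and 10.41 in the skin tumours, against 2.16 to 5.04 (median 2.60) in the others (6.01 ± 0.31, adjusted p = 2.4e-25), and had passed the filter only through the skin tumours.

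Falls below every other tumour were fewer and smaller than the rises. The largest was that of Cfi, complement factor I, which cuts activated complement, at 3.54, 3.24, 3.51, 3.35, 3.55 and 3.73 in skin tumours 1 to 6, against 3.75 to 12.75 (median 8.32) in the 60 others (-4.58 ± 0.69, adjusted p = 1.75e-07). Pcbd1, which recycles the cofactor of aromatic amino acid hydroxylases, was at 5.07, 5.02, 3.84, 4.31, 3.81 and 4.34 in the skin tumours, against 5.22 to 12.11 (median 9.30) in the others (-4.46 ± 0.27, adjusted p = 7.42e-22). Clu, clusterin, a secreted chaperone, was at 8.82, 9.48, 10.53, 9.72, 10.01 and 10.26 in the skin tumours, against 11.59 to 13.85 (median 13.13) in the others (-3.06 ± 0.19, adjusted p = 2.92e-21). Mertk, a receptor for the uptake of dead cells by macrophages and epithelia, was at 4.88, 3.996, 5.40, 4.91, 4.43 and 4.39 in the skin tumours, against 5.84 to 10.17 (median 7.24) in the others (-2.79 ± 0.27, adjusted p = 2.47e-13). For these 4 genes the nearest other tumour was closest for Cfi and Pcbd1 and farthest for Clu and Mertk. Cyp4v3 (-3.39 ± 0.27, adjusted p = 2.58e-16), a fatty acid hydroxylase, B4galt5 (-2.74 ± 0.23, adjusted p = 5.53e-16), a galactosyltransferase, Psen2 (-2.42 ± 0.22, adjusted p = 5.03e-14), presenilin 2 of gamma-secretase, Pde4dip (-2.20 ± 0.22, adjusted p = 9.19e-13), Uap1l1 (-2.11 ± 0.22, adjusted p = 3.29e-12) and Snx10 (-2.10 ± 0.17, adjusted p = 1.42e-16), a sorting nexin, made up the 10 largest of this kind among genes with a full name. Without the condition of no overlap, Trf, the iron carrier transferrin, fell most, at 6.49, 4.89, 7.43, 5.20, 4.62 and 3.96 in the skin tumours, against 6.90 to 13.77 (median 11.16) in the others (-4.90 ± 0.39, adjusted p = 9.38e-17). Igkj1, an immunoglobulin light chain segment (-4.74 ± 0.69, adjusted p = 6.86e-08), and Nrn1, neuritin (-4.55 ± 0.57, adjusted p = 1.22e-09), followed.

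The 10 genes with the largest spread among the skin tumours, given as a description, fell into both sides of the split. High in tumours 2, 4 and 6 and lowest in 1 and 3 were Lor, Hrnr, Lce1d, Lce1f, Lce3a, Lce3c, Wfdc12 and Mt4, a metallothionein of stratified epithelia at 2.71, 10.29, 2.54, 11.91, 7.66 and 11.83 in skin tumours 1 to 6. High in tumours 3 and 5 was Reg3g, an antibacterial lectin of gut and inflamed epithelium, at 5.53, 3.67, 11.42, 2.97, 12.78 and 3.65. Ltf, above, was high in 1, 3 and 5.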

How the data were processed

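Total RNA of the 66 tumours was extracted with the PicoPure kit (Arcturus) and labelled by the standard Affymetrix protocol, per the labels. The deposited values are log2 signals per probe set that the authors made with RMA in Partek 6.6, per the submitters' processing notes. Batches are not given in the sources used here, so no batch was tested, and the number of arrays limits the precision. Tumours were grouped by their source label, and numbered within a type in accession order.

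Of 45141 probe sets, 28898 named 1 gene symbol, 551 several and 15692 none. The 17097 genes so named were each represented by the probe set with the highest mean. Genes above the array's median in at least 3 of the 66 tumours (13456) were tested with limma 3.58.1 (lmFit and eBayes, R 4.3.3) on 7 type means, with no covariate, and p-values were adjusted by the Benjamini-Hochberg method. The differences are skin minus the mean of the 6 other type means, or minus 1 type. In simulated data for the first contrast, over 13456 genes, 75 of 100 genes changed by a log2 difference of 1 and 95 of 100 changed by 2 were called with the right sign. That simulation changed far fewer genes than were called here and gave each gene the same spread in all types. Its rates need not hold for these data. No p-value was computed for a list.

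The members of the comparison and the 40 gene lists were chosen with earlier results of these data known. Genes named are list members, the 15 largest rises above and 10 largest falls below every other tumour, the 5 largest rises and falls without that condition, and the 10 with the largest SD over the skin tumours. Genes known only by a clone or prediction number were left unnamed. Alternatives changed the probe set rule, the filter, the normalization, the moderation, the weight given to each array, which samples and which other types entered, and the test, and left out each skin tumour and each lymphoma in turn. Promoter windows and gene positions are from RefSeq (GRCm38.p6). Sorted normal cells entered the choice of probe sets and 1 alternative, and were otherwise not used. Tables were handled with Python 3.11.15 and pandas 2.3.3.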

Additional observations from a re-analysis of the deposited data

Results flagged for a closer look

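In 15 of the named genes and list means (7.65% of those examined), 1 skin tumour stood apart from the other 5 by a gap that, as a share of the whole range, was above Dixon's critical value for 6 samples. Chance gives such a gap in about 1 in 20 groups of this size. Why a tumour stood apart was not tested.

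Among keratinocyte genes, tumour 3 was low in 4. Krtdap was at 6.08 there and 11.49 to 13.52 in the other 5, Sprr3 at 7.93 against 10.66 to 11.71, Flg at 2.17 against 8.85 to 11.52, and Cldn1 at 5.81 against 7.605 to 8.63. Tumour 1 was low in Krt80, at 7.83 against 9.25 to 9.79, in Calml3, at 9.34 against 11.23 to 11.89, and in the interleukin 36 receptor gene Il1rl2, at 7.16 against 8.06 to 8.27. Krt2 stood apart upwards in tumour 6, at 9.99 against 2.94 to 4.89. The follicle stem cell receptor Lgr6, at 5.97 against 3.71 to 4.10, and the hedgehog factor Gli3, at 7.16 against 6.10 to 6.45, were high in tumour 1.

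Other cell types gave 4 such values. Jchain, of antibody-secreting cells, was at 8.54 in tumour 2 against 3.44 to 4.74 in the other 5. Adipoq was at 3.21 in tumour 2 against 2.83 to 2.96, C1qa of macrophages at 4.82 in tumour 5 against 7.28 to 8.45, and the mean level of the melanocyte genes at 4.45 in tumour 4 against 3.86 to 3.97. The remaining one was B4galt5, at 3.86 in tumour 5 against 5.27 to 5.56.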

How the results depend on the processing

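Of the genes named and tested, 111 kept their direction and their side of the threshold under each of the 30 alternatives that tested them, and 45 did not. At least 1 alternative left out 16 of these genes, most often the stricter filter on dim genes (15). No paired analysis was possible because the labels of the tumours carry no replicate numbers. Leaving out 1 skin tumour gave 16.6% to 18.9% of genes higher and 19.4% to 21.7% lower than the mean of the other types, and 3.29% to 4.39% higher and 1.28% to 1.95% lower than each type. Leaving out 1 lymphoma gave 18.8% to 18.9%, 21.9% to 22.2%, 3.93% to 3.98% and 1.45% to 1.63%. The genes lower than each type, 1.66% with the settings of the report, were 3.04% with array weights and 2.94% without B-cell lymphoma. Testing against a log2 difference of 1 (limma treat) left 4.1% higher, 1.29% lower, 1.3% higher than each type and 0.0372% lower than each type, and ended the calls of 33 named genes. The share of called genes that were higher was 46%, and 76% under that test. The tumours with the lower sample codes (5 of them skin, no lymphoma) gave 16.6% higher and 16.8% lower, and skin tumours 2, 4 and 6 alone, an alternative chosen after seeing the data, 15.7% and 17.3%. The median difference over all genes stayed within -0.10 to -0.01. The differences of 9 genes changed sign, and the cause was not tested. Krt19 was 0.065 without gastric, 0.28 without prostatic and 0.11 without uterine tumours, 0.63 without skin tumour 4 and 0.57 without skin tumour 6, in a range from -1.31 to 0.63 over the 6 skin tumours left out in turn. Lgr6 was -0.0194 without tumours 1 and 3 and -0.0242 without tumours 1, 3 and 5. Dst was 1.70 as the mean over its probe sets and 5.63 in the most variable one, and Axin2 0.0065 without prostatic tumours. Ltf was -1.11 with array weights, -1.28 without tumours 1 and 3 and -3.41 without tumours 1, 3 and 5, where Vim was 0.0275, Ppbp -0.0405 and Reg3g -1.67. Ifit1 was 0.0314 without uterine tumours, 0.38 with the lower sample codes, and 0.23, 0.26 and 0.23 without skin tumours 2, 4 and 6 in turn, in a range from -1.33 to 0.26. Of these, only Dst and Ppbp were called with all tumours.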

Other observations

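Homeobox genes of body position also divided the skin tumours, in genes chosen after their values were seen. Hoxd13, a homeobox gene of the hindmost body, had log2 signals of 8.06, 5.12, 2.58, 2.57, 2.75 and 2.74 in skin tumours 1 to 6, against 5.08 to 7.41 in prostatic and 2.47 to 2.82 in uterine tumours. Hoxa9 was at 7.98, 7.64, 3.51, 3.42, 3.93 and 3.22 in the skin tumours, against 4.82 to 7.85 in prostatic and 3.67 to 6.42 in uterine tumours. Hoxa10 was at 7.19, 5.06, 2.67, 2.25, 2.30 and 2.26 in the skin tumours, against 7.05 to 8.43 in prostatic and 2.43 to 8.08 in uterine tumours, so that tumours 1 and 2 were the highest in all 3 genes. Hoxb13, a marker of the prostate and the tail end of the body, was at 4.86, 6.22, 3.34, 2.99, 2.87 and 2.99 in the skin tumours, against 7.95 to 10.97 in prostatic tumours. Isl1 was high in 4 skin tumours, at 7.22, 6.49, 2.67, 6.39, 2.34 and 6.55. Hoxc8 was highest in tumour 2, at 5.55.

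Among genes of the female tract, likewise chosen after their values were seen, Emx2 and Wt1 did not overlap with the uterine tumours and others did. Emx2, a homeobox gene of the reproductive tract, was at 2.34, 2.49, 3.96, 2.89, 2.45 and 2.70 in the skin tumours, against 6.03 to 8.80 in uterine tumours. Wt1 ran from 2.40 to 2.999 in the skin tumours, against 3.11 to 7.54 in uterine tumours. Pgr, the progesterone receptor, ran from 2.78 to 3.72 in the skin tumours, against 2.54 to 11.15 in uterine tumours, and Pax8 from 2.69 to 3.28 against 2.54 to 7.51. Msx1 ran from 3.01 to 4.97 in the skin tumours, against 3.08 to 10.32 in uterine tumours. Esr1, the oestrogen receptor, was low in both, at 2.62 to 3.59 in the skin tumours, against 2.64 to 3.28 in uterine tumours, with skin tumour 1 the highest. Without tumours 1 and 3, 2.03% of the genes tested lay above and 0.595% below all 60 other tumours, and with all 6 skin tumours these shares were 0.669% and 0.156%. Asking this of 4 tumours in place of 6 can only raise the shares.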
